A study of Homo sapiens with 6 samples.

Results

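The 86 genes described here encode collagen chains (44 genes), laminin chains (12), the nidogens NID1 and NID2, perlecan (HSPG2), fibronectin (FN1), and the alpha (18) and beta (8) subunits of integrins. They were taken by gene symbol, whatever their values, from the 58830 rows of an RNA-seq table of definitive endoderm; the cells derived from the human embryonic stem cell line HuES8. The table held 3 wild-type libraries (DE) and 3 libraries of cells with the long noncoding RNA GATA6-AS1 knocked down (KD), all from total RNA. Every culture was kept in DMEM-F12 with 0.2% BSA and received Activin A at 100 ng/mL, together with 2.5 µM CHIR, which activates Wnt signalling by inhibiting GSK3, on the first day and without it on the following 2 days. How the RNA was knocked down, and what control construct the wild-type cells held, if any, is not stated in the labels. GATA6-AS1 stood between 313 and 421 TPM in the DE libraries and between 126 and 180 TPM in KD, and KD averaged 0.418 of DE (limma adjusted p = 0.0128). The labels do not say whether replicates came from separate cultures, and p-values therefore measure only a spread between libraries that may be technical.

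Basement membranes are sheets of matrix under epithelia in which a laminin network and a collagen IV network are joined by nidogen and perlecan. Laminins are trimers of 1 alpha, 1 beta and 1 gamma chain, collagens are trimers of alpha chains wound into a triple helix, and integrins are dimers of 1 alpha and 1 beta subunit that bind these proteins on the outside and the actin cytoskeleton on the inside. Pluripotent stem cells attach to laminin coats largely through the dimer of ITGA6 and ITGB1, and early endoderm deposits laminin, collagen IV and fibronectin. Values are TPM, reads scaled for transcript length and library total, so levels can be set side by side between genes. In bulk RNA, fewer cells of a type and less RNA per cell cannot be told apart.

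A few collagen chains, among them COL4A1 and COL4A6 of basement membranes, had less RNA in KD, while the integrin subunit ITGA3 had more. Of the 86 genes, 52 had at least 1 TPM in at least 3 libraries and were tested. The other 34 comprised 18 collagens, 3 laminins, 8 integrin alpha and 5 integrin beta subunits, none of which exceeded 1.44 TPM in any library. Of the 52 tested, 4 fell (COL4A1, COL4A6, COL9A2 and COL23A1), 2 rose (among them ITGA3) and 46 did not pass a limma adjusted p of 0.05 over all 17711 genes tested. The share called was 11.5%, beside 3.27% of all genes tested, and the median log2 change was -0.08, beside -0.01 for all genes. By direction, 1.5% of all genes tested fell and 1.77% rose. A lack of overlap between the groups was seen in 23 members, 15 lower and 8 higher in KD (44.2%, beside 20.8% of all genes).

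The called genes lie apart from each other in the genome. On GRCh38 with the GENCODE 29 annotation, COL4A1 (ENSG00000187498.15) spans chr13:110148963-110307233, COL4A6 (ENSG00000197565.15) chrX:108155607-108439497, COL9A2 (ENSG00000049089.14) chr1:40300487-40317813 and COL23A1 (ENSG00000050767.16) chr5:178237618-178590555, all on the minus strand. ITGA3 (ENSG00000005884.17) spans chr17:50055968-50090481 on the plus strand. All of these are protein-coding, and none shares exonic bases with another gene of that annotation.

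Replicate 3 of both groups had a larger share of mitochondrial transcripts, 38.04% in DE and 36.23% in KD, against 24.59% to 28.8% in the other libraries. Of the 52 tested members, 47 had their lowest DE value in DE replicate 3, and 42 their lowest KD value in KD replicate 3. This was not particular to the members. The median-ratio size factor, which follows the typical level of genes above 0 in every library, was also lowest in replicate 3. It was 0.863 in DE replicate 3 and 0.902 in KD replicate 3, against 1.047 to 1.109 in the other libraries. With the replicate number as a term in the fit (the replicate block), 20 of the 52 members passed, 15 lower and 5 higher, or 38.5% beside 12.5% of all genes (6.62% lower and 5.88% higher), and the 6 calls above were among them. With TPM recomputed without mitochondrial genes 17 passed, 12 lower and 5 higher, beside 9.62% of all genes, and ITGA2, which passed in neither fit above, was among them. None of the 6 calls passed when DE replicate 1, DE replicate 2, KD replicate 2 and KD replicate 3 were each left out in turn, where 0.559%, 1.2%, 0.491% and 1.42% of all genes passed, in that order. Without KD replicate 1 only COL23A1 passed (0.96% of all genes), and without DE replicate 3 the 4 collagens passed together with COL4A2, COL5A1 and COL5A2 (3.44%).

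**Figure D1:**
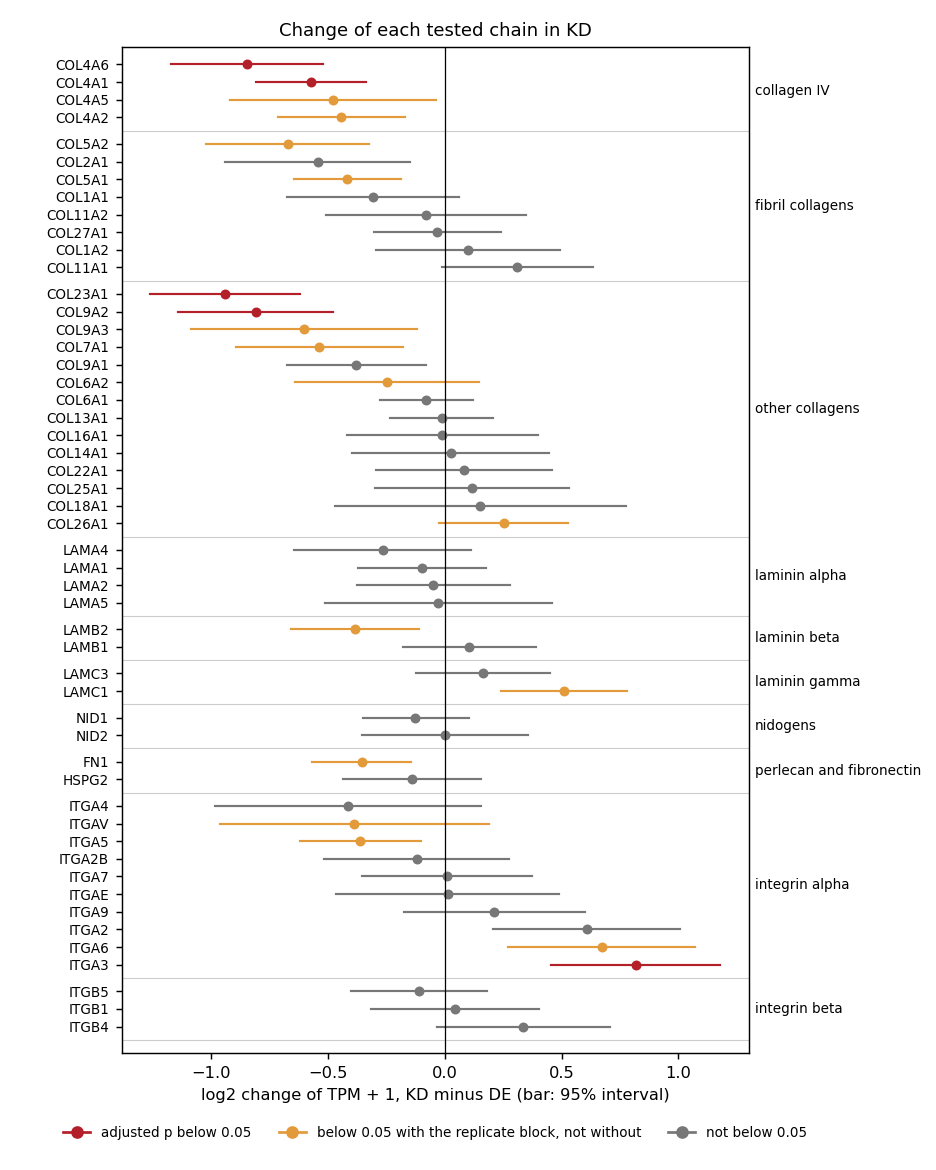
Log2 change of TPM + 1 (KD minus DE) with its 95% interval for each tested member named in the text, grouped by family. Red points passed the limma adjusted p of 0.05, orange points passed with the replicate block and not without it, and grey points passed in neither fit. The 4 red points on the left are collagens, from -0.94 for COL23A1 to -0.57 for COL4A1, and the red point on the right is ITGA3 (0.82).

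Collagen IV, the network collagen of basement membranes, had a lower mean in KD in each of its expressed chains. Its 6 genes lie in head-to-head pairs, and the pair of COL4A3 and COL4A4, whose chains are typical of kidney and lung basement membranes, stayed at or below 0.652 TPM in every library. The other 4 chains were tested, of which COL4A1 and COL4A6 fell and COL4A2 and COL4A5 did not pass, beside 1.5% of all genes tested that fell. All 4 passed as lower with the replicate block, beside 6.62% of all genes. Their median log2 change was -0.52, beside -0.01 for all genes. Summed over the family, collagen IV RNA came to 411, 416 and 329.6 TPM in the DE libraries and 276, 268 and 247 TPM in the KD libraries. The sums did not overlap, and KD averaged 0.683 of DE.

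COL4A1, which with COL4A2 forms the most widespread collagen IV trimer, had 163, 169 and 139 TPM in the DE libraries against 108, 105 and 102 TPM in KD. The groups did not overlap, and the KD values were close to each other. COL4A1 changed by -0.57 on the log2 scale (SE 0.1, limma adjusted p = 0.0301). Its partner COL4A2 had 154, 155 and 123 TPM in the DE libraries against 108.7, 108 and 98.9 TPM in KD, again with no overlap. For COL4A2 the log2 change was -0.44 (95% interval -0.71 to -0.17), with a limma adjusted p of 0.102, or 0.00933 with the replicate block. Within a library the log2 ratio of COL4A1 to COL4A2 was 0.13 ± 0.0470 in DE and 0.00 ± 0.0461 in KD (SD, n = 3 each), so the COL4A1 share of the pair was slightly larger in DE. The 2-sided exact permutation p of that difference was 0.1, the smallest that 3 against 3 libraries allow, and 0.15 after adjustment over the 9 chain ratios examined.

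COL4A6, a chain of smooth muscle and some epithelial basement membranes, had 45.1, 42.9 and 34.1 TPM in the DE libraries against 24.1, 22.7 and 19.6 TPM in KD. The groups were well apart, with all KD values below all DE values. COL4A6 changed by -0.85 on the log2 scale (SE 0.139, limma adjusted p = 0.0240), to 0.543 of its DE mean. COL4A5, which joins COL4A6 in a trimer and also COL4A3 and COL4A4 in another, had 48.3, 48.9 and 32.5 TPM in the DE libraries against 34.7, 30.9 and 25.7 TPM in KD. These values overlapped, since DE replicate 3 lay below KD replicate 1. The log2 change of COL4A5 was -0.48 (95% interval -0.92 to -0.04), which did not pass (limma adjusted p = 0.277) and did with the block (0.0163). The log2 ratio of COL4A5 to COL4A6 was 0.07 ± 0.129 in DE and 0.44 ± 0.0682 in KD (SD, n = 3 each), with no overlap between the groups (exact permutation p = 0.1, adjusted 0.15).

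The start regions of the expressed pairs are shown because both chains of each pair lay lower in KD and are read outwards from a shared stretch. Each window runs from 250 bases before to 50 after a gene's start in RefSeq (GRCh38.p14), 5′ to 3′ on the gene's own strand. Capitals mark the letters CCAAT (a binding word of the factor NF-Y) and GGGCGG (a GC box) on either strand.
COL4A1: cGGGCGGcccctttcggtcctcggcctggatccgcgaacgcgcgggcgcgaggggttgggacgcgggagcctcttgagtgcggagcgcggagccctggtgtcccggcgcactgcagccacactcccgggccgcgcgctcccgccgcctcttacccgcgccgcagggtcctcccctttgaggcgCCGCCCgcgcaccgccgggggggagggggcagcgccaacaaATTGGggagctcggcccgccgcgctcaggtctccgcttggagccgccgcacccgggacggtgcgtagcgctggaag
COL4A2: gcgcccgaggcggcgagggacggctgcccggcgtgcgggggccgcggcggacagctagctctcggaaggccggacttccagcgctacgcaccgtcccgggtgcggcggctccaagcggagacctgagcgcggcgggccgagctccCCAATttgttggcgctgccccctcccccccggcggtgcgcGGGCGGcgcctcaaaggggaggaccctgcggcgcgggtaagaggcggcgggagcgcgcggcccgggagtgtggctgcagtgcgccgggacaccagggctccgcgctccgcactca
COL4A6: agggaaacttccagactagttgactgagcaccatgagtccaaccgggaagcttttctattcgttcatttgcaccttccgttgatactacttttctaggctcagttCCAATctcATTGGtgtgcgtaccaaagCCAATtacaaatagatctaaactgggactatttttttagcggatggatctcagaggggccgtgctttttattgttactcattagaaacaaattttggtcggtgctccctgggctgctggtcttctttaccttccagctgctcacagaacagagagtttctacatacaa
COL4A5: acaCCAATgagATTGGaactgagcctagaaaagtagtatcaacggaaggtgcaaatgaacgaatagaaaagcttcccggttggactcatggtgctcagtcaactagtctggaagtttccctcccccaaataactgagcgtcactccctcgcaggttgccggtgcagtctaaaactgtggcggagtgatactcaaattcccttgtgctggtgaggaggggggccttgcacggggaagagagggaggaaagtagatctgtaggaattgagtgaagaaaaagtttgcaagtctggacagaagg
The COL4A1 window lies at chr13:110307108-110307407 on the minus strand and the COL4A2 window at chr13:110307034-110307333 on the plus strand. They share 226 bases, and the start sites are 127 bases apart. The COL4A6 window lies at chrX:108439409-108439708 on the minus strand and the COL4A5 window at chrX:108439588-108439887 on the plus strand, with 121 bases shared and 380 bases between the starts.

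The pairs differ in composition. The COL4A1 and COL4A2 windows hold 76.7% and 77.7% G and C, those of COL4A5 and COL4A6 49.3% and 43.7%. The COL4A1 and COL4A2 windows share 1 CCAAT word and 1 GC box, and COL4A1 has a further GC box at its far end. COL4A6 holds 3 CCAAT words, COL4A5 holds 2 of these, and neither has a GC box. CCAAT occurs in 34.6% and GGGCGG in 45.0% of all 35116 RefSeq start windows of this length, counted on both strands. GATA factors were searched for by the words AGATAA and AGATAG, and likewise by the words TGATAA and also TGATAG, on both strands. At least 1 of these is present in 25% of all windows and none in the 4 printed windows, while a second COL4A6 start window, at chrX:108438373-108438672, holds 1. Of 81 windows of 62 members in the RefSeq table, 16 (19.8%) hold a GATA word. A word match is a description of these letters and not evidence of binding.

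**Figure D2:**
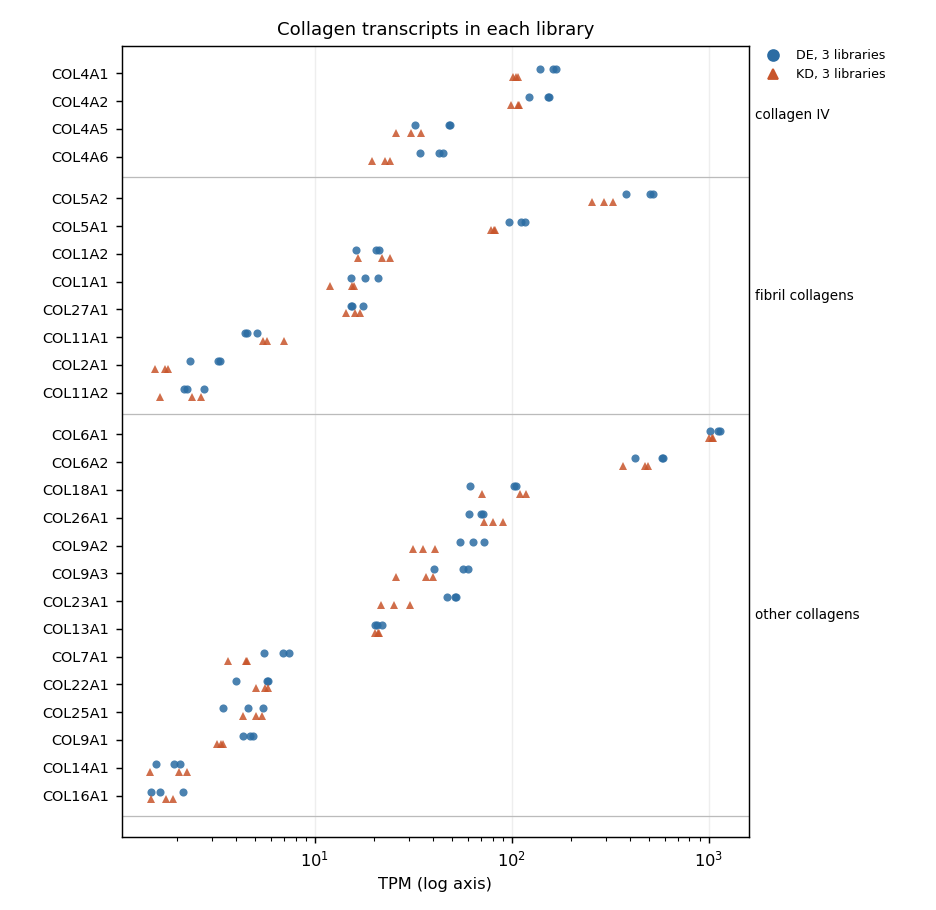
TPM (log axis) of the 26 tested collagen chains in each library, DE as circles and KD as triangles, grouped as collagen IV, fibril collagens and other collagens. The circles and triangles of COL4A1, COL4A6, COL9A2 and COL23A1 do not overlap, and COL6A1, at 1009.5 to 1147.5 TPM, is the highest chain.

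Among the collagens that build fibrils, the type V chains COL5A1 and COL5A2 stood lower in every KD library than in any DE library, and the type I chains overlapped. Of 11 genes 8 were tested and none passed, beside 3.27% of all genes tested. Their median log2 change was -0.19, beside -0.01 for all genes. Their summed TPM was 686, 703 and 535 in DE and 474, 441 and 391 in KD, and COL5A2 supplied 70.7% of it. COL5A2 had 503, 521 and 382 TPM in the DE libraries against 328, 294 and 256 TPM in KD, with no overlap. The log2 change of COL5A2 was -0.67 (SE 0.149, limma adjusted p = 0.0610), and it passed with the block (0.00324). COL5A1, its partner in a trimer that regulates fibril width, had 111, 116 and 97.4 TPM in the DE libraries against 81.4, 82.7 and 78.2 TPM in KD. Here too the groups did not overlap, with a log2 change of -0.42 (SE 0.0979, limma adjusted p = 0.0730, with the block 0.00990). COL3A1, whose gene ends 19149 bases from the end of COL5A2, stayed at or below 0.274 TPM, and COL5A3, the remaining type V chain, at or below 0.478 TPM.

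The type I chains, which form the main fibrils of connective tissue, stood at 15.4 to 20.9 TPM (COL1A1) and 16.2 to 21.2 TPM (COL1A2) in DE, and at 11.97 to 15.8 and 16.6 to 24.02 TPM in KD. Both overlapped between the groups (log2 changes -0.31 and 0.10). COL2A1, the cartilage chain, had 3.28, 3.24 and 2.32 TPM in the DE libraries against 1.80, 1.54 and 1.74 TPM in KD, from 66.7 to 157 estimated reads. These values did not overlap, and the log2 change of -0.54 did not pass (limma adjusted p = 0.165, with the block 0.0866). COL11A1 went the other way, from 4.69 ± 0.372 to 6.07 ± 0.800 TPM (SD, n = 3 each), and did not pass either (limma adjusted p = 0.353). COL27A1 and COL11A2 had means of 16.2 and 2.38 TPM in the DE libraries against 15.8 and 2.21 TPM in KD.

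Collagen VI, which forms beaded filaments near cell surfaces, supplied the most abundant RNAs of the whole group. COL6A1 had 1115, 1147.5 and 1012 TPM in the DE libraries against 1009.5, 1051 and 1037 TPM in KD, overlapping ranges with a log2 change of -0.08 (95% interval -0.28 to 0.12). COL6A2, next to it on chromosome 21, had 582, 589 and 423 TPM in the DE libraries against 474, 495 and 369 TPM in KD. The groups overlapped through DE replicate 3, and the log2 change of -0.25 passed only with the replicate block (limma adjusted p = 0.612, with the block 0.0251). The chain that completes the usual collagen VI trimer, COL6A3, was at or below 0.289 TPM, and the alternative chains COL6A5 and COL6A6 at or below 0.293 and 0.647 TPM.

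Collagen IX, a fibril-associated collagen best known from cartilage, stood lower in every KD library than in any DE library in all its chains, of which COL9A2 passed. COL9A2 had 72.3, 63.6 and 54.8 TPM in the DE libraries against 40.8, 35.3 and 31.5 TPM in KD. It fell by 0.81 on the log2 scale (SE 0.141, limma adjusted p = 0.0298), to 0.564 of the DE mean. COL9A3 had 59.9, 56.7 and 40.2 TPM in the DE libraries against 39.9, 36.5 and 25.9 TPM in KD, with DE replicate 3 barely above KD replicate 1. The log2 change of COL9A3 was -0.60 (SE 0.206), and its limma adjusted p was 0.206, or 0.00312 with the block. COL9A1, far lower in level, had 4.62 ± 0.291 TPM in the DE libraries against 3.32 ± 0.115 TPM in KD (SD, n = 3 each), did not overlap between the groups and did not pass (limma adjusted p = 0.198, with the block 0.0824).

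COL23A1, a transmembrane collagen, had the largest change of the tested collagens. It had 52.0, 51.3 and 47.0 TPM in the DE libraries against 30.6, 21.8 and 25.2 TPM in KD, changing on the log2 scale by -0.94 (SE 0.136, limma adjusted p = 0.0164). Its lowest DE library exceeded its highest KD library, and KD averaged 0.516 of DE. The related transmembrane chain COL13A1 had 21.0 ± 0.880 TPM in the DE libraries against 20.8 ± 0.480 TPM in KD (log2 change -0.01, 95% interval -0.23 to 0.21), and COL25A1 had 4.5 ± 1.03 and 4.91 ± 0.567 TPM (SD, n = 3 each). COL7A1, the anchoring fibril collagen, had 7.37, 6.88 and 5.52 TPM in the DE libraries against 4.502, 4.55 and 3.62 TPM in KD. The ranges did not overlap, and the log2 change of COL7A1 was -0.54 (limma adjusted p = 0.128, with the block 0.0225).

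COL26A1, a secreted protein with short collagen stretches, was the collagen that passed upwards with the block. It had 70.2, 71.7 and 60.9 TPM in the DE libraries against 80.1, 90.3 and 72.1 TPM in KD, values that only just did not overlap (log2 change 0.25, limma adjusted p = 0.383, with the block 0.0403). COL18A1, a basement membrane collagen from which endostatin is cut, had 103, 105 and 61.4 TPM in the DE libraries against 110.2, 118 and 70.3 TPM in KD. Both groups were split by replicate 3, which lay far below the others, and the interval of its log2 change ran from -0.47 to 0.77. COL18A1 shares 16.4% of its exonic bases with SLC19A1 on the other strand, and whether counting used strand is not known. COL22A1, COL14A1 and COL16A1, which attach to fibrils or basement membranes, had means between 1.72 and 5.48 TPM in either group and log2 changes between -0.01 and 0.08.

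The summed RNA of the laminin gamma chains, of which LAMC1 supplied 89.8%, was higher in every KD library than in any DE library, and the sums of the alpha and of the beta chains overlapped. The summed gamma chains came to 115, 127 and 98.9 TPM in the DE libraries against 158, 169 and 153 TPM in KD, with no overlap, and the KD mean was 1.41 times the DE mean. The summed alpha chains had 135 ± 22.5 TPM in the DE libraries against 129 ± 17.3 TPM in KD, and the summed beta chains 146 ± 16.2 and 141 ± 12.4 TPM (SD, n = 3 each), with overlapping libraries. Of 9 laminin genes tested none fell. With the replicate block LAMC1 passed as higher and LAMB2 as lower, beside 5.88% of all genes that were higher and 6.62% lower.

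LAMC1, the gamma chain of most laminins, had 102, 114 and 87.9 TPM in the DE libraries against 142, 152 and 138 TPM in KD. All KD libraries lay above all DE libraries, with a log2 change of 0.51 (SE 0.115) and a limma adjusted p of 0.0641, or 0.00663 with the block. LAMA3 and LAMB3, chains of an epithelial laminin, stood at or below 0.341 and 0.299 TPM in all 6 libraries. LAMC3 had 10.1 ± 1.11 TPM in the DE libraries against 11.4 ± 0.698 TPM in KD (SD, n = 3 each) and did not pass (limma adjusted p = 0.658).

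Of the beta chains, LAMB2 stood lower in every KD library than in any DE library, and LAMB1 overlapped. LAMB1, the main beta chain of early embryonic laminins, had 99.0, 104 and 82.0 TPM in the DE libraries against 104, 109.9 and 92.7 TPM in KD, overlapping (log2 change 0.11, 95% interval -0.18 to 0.39). LAMB2, the beta chain that replaces it in synaptic and kidney basement membranes, had 54.5, 52.6 and 45.5 TPM in the DE libraries against 40.0, 41.6 and 34.7 TPM in KD. LAMB2 did not overlap between the groups, and its log2 change was -0.38 (limma adjusted p = 0.157, with the block 0.0125). Within libraries the log2 ratio of LAMB2 to LAMB1 was -0.89 ± 0.0725 in DE and -1.38 ± 0.0205 in KD, and that of LAMB1 to LAMC1 was -0.09 ± 0.0455 and -0.50 ± 0.0627 (SD, n = 3 each). Neither ratio overlapped between the groups (exact permutation p = 0.1, adjusted 0.15).

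The alpha chains, which carry most integrin binding sites of laminins, were led by LAMA5 and LAMA1. LAMA5 had 83.0, 75.4 and 53.4 TPM in the DE libraries against 74.1, 79.5 and 53.6 TPM in KD, and LAMA1 had 57.2, 58.1 and 46.1 TPM in the DE libraries against 51.5, 51.4 and 47.2 TPM in KD. Both overlapped, with log2 changes of -0.03 (95% interval -0.51 to 0.46) and -0.10 (-0.37 to 0.18). LAMA1 shares 10.3% of its exonic bases with an antisense gene, and no other tested laminin shares more than 2.715% with a single gene. LAMA2, a muscle laminin chain, had 8.43 ± 1.02 and 8.12 ± 0.989 TPM (SD, n = 3 each). LAMA4, a chain of vessel walls, had 2.42, 1.99 and 1.87 TPM in the DE libraries against 1.61, 1.70 and 1.40 TPM in KD, with no overlap and without passing (limma adjusted p = 0.545).

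None of the nidogens, perlecan and fibronectin passed. NID1, the main nidogen, had 53.2, 55.7 and 50.6 TPM in the DE libraries against 45.1, 51.9 and 49.1 TPM in KD, overlapping, with a log2 change of -0.12 (95% interval -0.35 to 0.10). NID2 had 4.42 ± 0.733 and 4.41 ± 0.385 TPM (SD, n = 3 each), and 30.0% of its exonic bases are also those of RTRAF on the other strand. HSPG2, the perlecan gene, had 51.3 ± 5.59 TPM in the DE libraries against 46.5 ± 5.13 TPM in KD (SD, n = 3 each), with a log2 change of -0.14 (95% interval -0.44 to 0.16), and shares 11.7% of its exonic bases with LDLRAD2. For fibronectin, the ligand of ITGA5 and ITGAV dimers, FN1 had 236, 219 and 206 TPM in the DE libraries against 181, 165 and 171 TPM in KD. The groups did not overlap, and the log2 change of FN1 was -0.35 (SE 0.0900, limma adjusted p = 0.0925, with the block 0.0115).

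**Figure D3:**
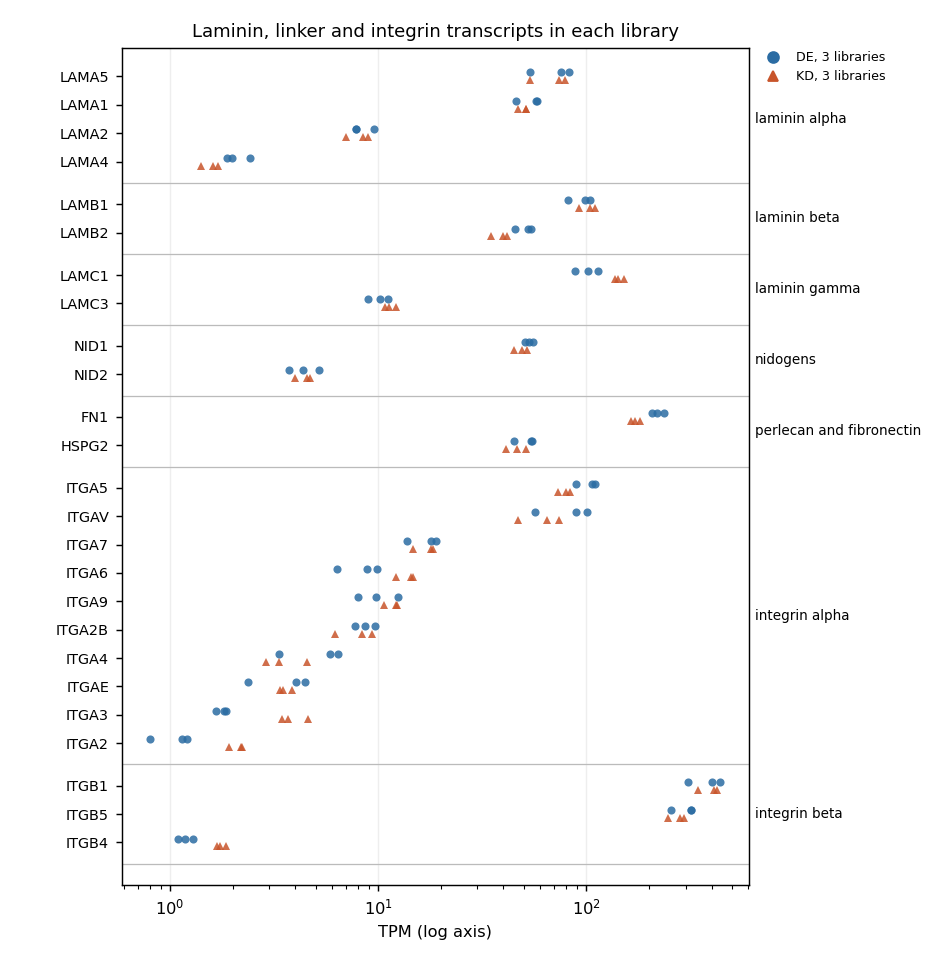
TPM (log axis) of the tested laminin, nidogen, perlecan, fibronectin and integrin genes named in the text, in each library, DE as circles and KD as triangles. LAMC1, ITGA2, ITGA3, ITGA6 and ITGB4 have all triangles to the right of all circles, and LAMA4, LAMB2, FN1 and ITGA5 all triangles to the left.

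Among integrin alpha subunits, ITGA3 and ITGA6, which bind laminin, and ITGA2, which binds collagen, stood higher in every KD library than in any DE library, and ITGA5, which binds fibronectin, lower. Of 18 genes 10 were tested, and 1 rose (ITGA3) and none fell, with ITGA3 and ITGA6 higher and ITGA5 and ITGAV lower under the replicate block. Of all genes tested, 1.77% rose and 1.5% fell, or 5.88% and 6.62% with the block. ITGA3, a laminin receptor subunit of epithelia, rose from 1.65, 1.86 and 1.82 TPM in DE to 4.60, 3.68 and 3.46 TPM in KD. The reads behind these values were estimated at 115 to 117 in DE and 235 to 274 in KD, and the log2 change of TPM + 1 was 0.82 (SE 0.154, limma adjusted p = 0.0391), with a KD mean 2.20 times the DE mean. ITGA6, the laminin receptor subunit of stem cells, had 8.84, 9.90 and 6.35 TPM in the DE libraries against 14.6, 14.4 and 12.2 TPM in KD. No library of ITGA6 overlapped, and the log2 change was 0.67 (SE 0.170, limma adjusted p = 0.0917, with the block 0.0105). ITGA2, a collagen receptor subunit, had 1.202, 1.14 and 0.802 TPM in the DE libraries against 2.20, 2.21 and 1.92 TPM in KD, from 41.0 to 123 estimated reads, and its limma adjusted p was 0.123 (with the block 0.0716). Another laminin receptor subunit, ITGA7, had 16.9 ± 2.80 and 16.9 ± 1.99 TPM (SD, n = 3 each), and its log2 change was 0.01 (95% interval -0.35 to 0.37).

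ITGA5 and ITGAV, which bind fibronectin and other ligands with an RGD sequence, were the most abundant alpha RNAs. ITGA5, the fibronectin receptor subunit, had 106, 110.2 and 89.6 TPM in the DE libraries against 83.6, 79.98 and 73.3 TPM in KD. The groups did not overlap, with a log2 change of -0.36 (SE 0.111, limma adjusted p = 0.161, with the block 0.0150). ITGAV, the vitronectin receptor subunit, had 89.1, 101 and 56.8 TPM in the DE libraries against 74.0, 65.1 and 47.0 TPM in KD, overlapping through DE replicate 3 (log2 change -0.39, limma adjusted p = 0.575, with the block 0.0401). ITGA4, another fibronectin receptor subunit, had 5.20 ± 1.64 and 3.59 ± 0.853 TPM (SD, n = 3 each) and did not pass (limma adjusted p = 0.525). Within libraries the log2 ratio of ITGA6 to ITGA5 went from -3.47 ± 0.139 in DE to -2.44 ± 0.0454 in KD (SD, n = 3 each), the largest difference of the 9 ratios at 1.03 (exact permutation p = 0.1, adjusted 0.15), while that of ITGA5 to ITGAV differed by 0.03 and overlapped.

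ITGA9, ITGA2B and ITGAE, better known from other tissues, platelets and lymphocytes respectively, had means between 3.56 and 11.7 TPM in either group and limma adjusted p between 0.675 and 0.994. The leukocyte subunits ITGAL, ITGAM, ITGAX and ITGAD did not exceed 0.379 TPM, and the collagen receptor subunits ITGA10 and ITGA11 did not exceed 0.316 TPM. ITGA1, also a collagen receptor subunit, lay just under the filter at 0.684 to 0.940 TPM in the DE libraries against 0.893 to 1.29 TPM in KD and was not tested.

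The beta subunits were led by ITGB1, the partner of most matrix-binding alpha subunits. ITGB1 had 402, 441 and 309 TPM in the DE libraries against 427, 410.3 and 343 TPM in KD, overlapping (log2 change 0.04, 95% interval -0.32 to 0.40). ITGB5, a partner of ITGAV, had 318, 319 and 254 TPM in the DE libraries against 282, 295 and 246 TPM in KD (log2 change -0.11, 95% interval -0.40 to 0.18). The log2 ratio of ITGB5 to ITGB1 was -0.36 ± 0.0947 in DE and -0.51 ± 0.0707 in KD (SD, n = 3 each), without overlap (exact permutation p = 0.1, adjusted 0.15). ITGB4, which pairs with ITGA6 in hemidesmosomes, had 1.10, 1.18 and 1.28 TPM in the DE libraries against 1.73, 1.86 and 1.68 TPM in KD. The ITGB4 groups did not overlap, and the change did not pass (limma adjusted p = 0.381, with the block 0.267). ITGB2, ITGB3, ITGB6, ITGB7 and ITGB8 stayed at or below 1.24 TPM, so ITGB1 and ITGB5 made up nearly all beta subunit RNA.

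**Figure D4:**
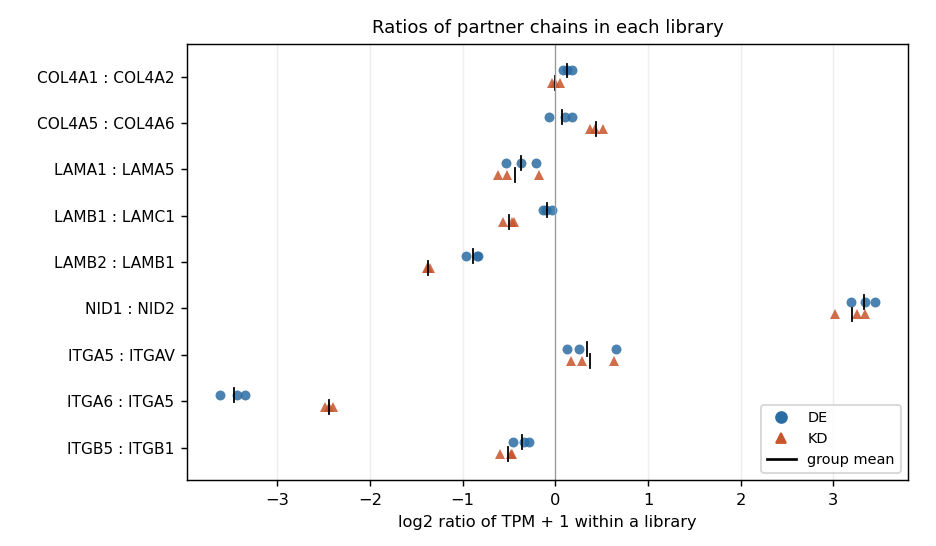
Log2 ratio of TPM + 1 between the chains of 9 partner pairs within each library, DE as circles, KD as triangles and the group means as black bars. The ratios of LAMB2 to LAMB1, LAMB1 to LAMC1, ITGA6 to ITGA5, ITGB5 to ITGB1 and both collagen IV pairs do not overlap between the groups, and those of LAMA1 to LAMA5, NID1 to NID2 and ITGA5 to ITGAV do.

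Genes that process, bind or cut these proteins were examined in 5 further lists. Of all genes tested, 3.27% passed without the block and 12.5% with it, and the counts below are to be read beside these shares. Without the block the share called in a list ran from 0% to 13.8%. With the block it was lowest in collagen biosynthesis and crosslinking, at 15.4%, close to the share of all genes. None of 26 tested genes of collagen biosynthesis and crosslinking passed (4 lower with the block), with a median log2 change of -0.08. Of 29 other matrix glycoproteins, 2 rose and 2 fell (4 and 8 with the block), with a median of -0.20. THBS2, a matricellular thrombospondin, rose from 3.85, 4.12 and 2.95 TPM to 14.9, 15.8 and 12.1 TPM (limma adjusted p = 0.00431), and the proteoglycan VCAN from 37.1 ± 6.63 to 70.3 ± 3.57 TPM (SD, n = 3 each). NTN4, a netrin that binds laminin gamma chains, fell from 62.5, 67.2 and 59.8 TPM to 41.9, 39.5 and 37.5 TPM (limma adjusted p = 0.0166), and SMOC2, a basement membrane protein of the SPARC family, from 4.62 ± 0.251 to 2.23 ± 0.5 TPM (SD, n = 3 each). The limma adjusted p of VCAN was 0.0201 and that of SMOC2 was 0.0452.

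Among 15 other matrix receptors 1 rose, BCAM, a receptor for LAMA5, from 22.2 ± 0.760 to 31.6 ± 1.24 TPM (SD, n = 3 each; 2 higher and 4 lower with the block). Of 30 genes of the integrin adhesion machinery 1 rose and 1 fell (2 and 4 with the block). FERMT1, a kindlin that activates integrins, rose from 4.34 ± 0.569 to 7.44 ± 0.592 TPM (SD, n = 3 each). The limma adjusted p was 0.0393 for BCAM and 0.0489 for FERMT1. Of 22 matrix proteases and inhibitors 3 rose and none fell (8 and 3 with the block). MMP9, a gelatinase that cuts collagen IV, rose from 9.99, 9.80 and 7.95 TPM to 23.9, 30.3 and 20.55 TPM, every KD library lying above every DE library (limma adjusted p = 0.0108). TIMP4, a metalloprotease inhibitor, rose from 0.536 ± 0.201 to 4.01 ± 0.162 TPM and MMP24, a membrane metalloprotease, from 0.479 ± 0.166 to 2.29 ± 0.231 TPM (SD, n = 3 each), with limma adjusted p of 0.00548 and 0.0201. Both were below 1 TPM in every DE library and met the filter only through KD, so they could be called only as higher. They are included in the counts of risen genes. Their calls in fits with a library left out carry the same limit. Over these lists together 7 genes rose and 3 fell, and left-out libraries changed that count: 2 rose and 0 fell without DE replicate 1, 4 and 0 without DE replicate 2, 3 and 0 with either KD replicate 1 or KD replicate 2 left out, 4 and 0 with KD replicate 3 left out, and 6 and 5 with DE replicate 3 left out. THBS2 and TIMP4 passed in all 6 of these fits and MMP9 in 5, with limma adjusted p of at most 0.0371, 0.0480 and 0.0534. VCAN passed in 2 of them, NTN4, BCAM and MMP24 in 1 each, and SMOC2 and FERMT1 in 0.

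Markers of the cells that the cultures could hold moved with the groups. Of 12 definitive endoderm markers 7 fell, and of 10 pluripotent stem cell markers 7 rose, beside 1.5% of all genes tested that fell and 1.77% that rose. Among the tested markers of other lists, 2 of 7 visceral and parietal endoderm genes fell. Of 6 mesoderm and cardiac genes 3 rose and 1 fell, and of 5 trophoblast and amnion genes 1 rose and 3 fell. Of 4 endothelial genes 1 rose and 1 fell, of 6 fibroblast and feeder genes 1 rose, and of 3 smooth muscle genes none passed. These lists share genes with the mesoderm and cardiac list, so a gene can be counted more than once. HAND1 is also in the trophoblast list, PDGFRA in the fibroblast list and KDR in the endothelial list. The summed level of the definitive endoderm markers ranged from 25370.0 to 28845 TPM in the DE libraries and from 18401 to 20149 TPM in KD, and that of the pluripotent stem cell markers from 2612 to 3213 TPM and from 3716 to 4155 TPM. For 12 visceral and parietal endoderm markers, of which AFP, TTR and APOB were under 1 TPM throughout, the sums were 1249 to 1336 TPM in the DE libraries against 1016 to 1054 TPM in KD, and for 10 trophoblast and amnion markers 78.8 to 84.4 and 52.9 to 57.7 TPM, with CGA, KRT7, TFAP2A, ELF5 and VTCN1 under 1 TPM. SPARC alone supplied 716.2 to 791.2 TPM of the visceral and parietal sums in DE and 632.0 to 661.6 TPM in KD. It also belongs to the matrix glycoprotein list. Mesoderm and cardiac markers (11, with MESP1, MESP2, HAND2 and MSGN1 under 1 TPM) summed to 158 to 199.8 TPM in the DE libraries against 222 to 237 TPM in KD. The sums of 12 fibroblast and feeder markers (128 to 155 and 129.98 to 144 TPM), 10 endothelial markers (163 to 203 and 180.2 to 205 TPM) and 6 smooth muscle markers (44.9 to 54.4 and 49.6 to 63.2 TPM) overlapped, and DCN, LUM, POSTN, PRRX1 and FAP, PECAM1, CDH5, TEK, TIE1, ESAM and ERG, and ACTA2 and MYH11 were under 1 TPM in every library. Of 10 blood and platelet markers 9 were under 1 TPM throughout, with CD68 at 0, and the sums were 2.22 to 4.45 TPM in DE and 1.25 to 2.65 TPM in KD. The part of these marker shifts in the changes of the collagens, laminins and integrins was not tested.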

How the data were processed

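RNA-seq of 3 wild-type (DE) and 3 GATA6-AS1 knockdown (KD) libraries was analysed from 1 table of TPM, which the authors deposited. The submitters' processing notes name the build GRCh38 and the tools HISAT2 2.1.0, featureCounts and DESeq2, without their roles; annotation and strand setting are not stated there. Because no strand setting is known, reads of a gene and an overlapping antisense gene cannot be told apart. Gene symbols had been turned into dates in 28 rows, none of them a member. The members and lists were chosen with earlier results of these data known.

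Genes reaching 1 TPM in 3 or more of the 6 libraries (17711 of 58830) were tested with limma 3.58.1 in R 4.3.3 on log2(TPM + 1), with a variance trend, 2-sided, adjusted by Benjamini-Hochberg over all of them at 0.05. Fold changes on this scale understate those of low genes. Ratios of partner chains were compared by 2-sided exact permutation. Members are named where they passed with or without the replicate block, are the 4 most abundant of their class, are nidogens, perlecan or fibronectin, or belong to a head-to-head collagen IV pair. From each pathway list, up to 4 called genes are named. Single results of 1 member and 1 list gene that meet these rules are not reported here. Other members named were chosen after their values were seen.

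Low TPM values, multiplied by GENCODE 29 exon length, were whole multiples of 1 read within 0.02 for 88.7% to 89.5% of values. The depth estimated from this was 18640741 to 24510586 reads in genes per library, and 1 TPM of a 2 kb gene stood for 11.28 to 16.16 reads. Deviations of same-numbered DE and KD libraries from their group means correlated at 0.108, 0.144 and 0.347. All are above 0.1, the limit used for fitting the replicate number as a block. That choice rests on the data and not on the labels. Unmatched numbers correlated between -0.237 and 0.121, so the lowest matched value, 0.108 for replicate 1, lay below the highest unmatched one. Replicate 3, with its larger mitochondrial share in both groups, gave the 0.347, and a pairing of replicates 1 and 2 is not established. Calls are those of the main fit, without the block, and values with the block are an alternative. Simulated data with 17711 genes and known changes gave back 11.9% of changes of 0.5, 41.8% of 1 and 87.9% of 2 (log2) for KD against DE, with 1 false call. The changes were placed only in genes with a DE mean of log2(TPM + 1) above 2. Noise was drawn separately for each gene, so a shift shared by many genes of a library, as in replicate 3, was not simulated. Alternatives covered the pseudocount, filter, scaling, variance model, threshold, replicate block and left-out libraries. Start windows were taken from RefSeq (GRCh38.p14), where 62 of the 86 members matched.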

Additional observations from a re-analysis of the deposited data

How the results depend on the processing

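Among the collagen, laminin and integrin genes, 2 were higher and 4 lower. The higher and lower counts were 5 and 12 with TPM recomputed without mitochondrial genes, 5 and 13 with median-ratio scaling, 5 and 14 with quantile normalization, 5 and 15 with limma voom on estimated reads (chosen after seeing the data), 3 and 12 without replicate 3 of both groups, 0 and 4 with a mean of at least 5 TPM, 0 and 1 with no filter, and 0 and 0 at an adjusted p of 0.01. The share of all genes called moved with them, from 3.27% to 9.62%, 9.9%, 9.8%, 12.6%, 6.84%, 4.16% and 0.646% for the first 7 of these settings, in that order. The filter of a mean of at least 5 TPM left 38 members and removed ITGA3 (mean 2.84 TPM), which was therefore not tested there. Leaving out 1 library at a time gave 0 to 0 higher and 0 to 7 lower. For the 5 pathway lists (7 higher and 3 lower) the counts were 14 and 18, 14 and 15, 14 and 17, and 15 and 22 under the first 4 of these settings, then 11 and 11 without replicate 3 of both groups, 3 and 1 with no filter and 2 and 0 at 0.01. With 1 library left out they were 2 to 6 higher and 0 to 5 lower. Both other pseudocounts and the robust variance kept all 6 calls, and the fit without a variance trend kept 5. With the replicate block, 5 members were higher and 15 lower, and 16 and 23 genes of the lists. The median of all genes moved to -0.10 without DE replicate 3.

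With 1 library left out, the log2 change of ITGA7 ran from -0.13 to 0.11, that of ITGB1 from -0.11 to 0.15, that of LAMA5 from -0.21 to 0.14 and that of NID2 from -0.09 to 0.10. Reversed directions were -0.126 (DE replicate 3), -0.031 (KD replicate 1) and -0.045 (KD replicate 2) for ITGA7, -0.105 (DE replicate 3) and -0.018 (KD replicate 1) for ITGB1, 0.1 (DE replicate 1), 0.031 (DE replicate 2) and 0.143 (KD replicate 3) for LAMA5, and -0.004 (DE replicate 1), -0.093 (DE replicate 3), -0.036 (KD replicate 1) and -0.020 (KD replicate 2) for NID2. Without replicate 3 of both groups, ITGA7 stood at -0.030, ITGB1 at -0.009 and NID2 at -0.033. The difference of the ratio of LAMA1 to LAMA5 became 0.011 without DE replicate 3 and 0.021 without KD replicate 2, in a range over left-out libraries of -0.199 to 0.021. That of ITGA5 to ITGAV became -0.021, -0.083 and -0.107 without DE replicate 1, DE replicate 2 and KD replicate 3, in a range of -0.107 to 0.179. None of these was past a threshold, and the cause was not tested. With 3 libraries a group, no exact test could go below 0.1. ITGA3, ITGA2 and COL2A1 rest on at most 274, 123 and 157 estimated reads in a library, and 34 members were too low to test.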
